A study of Mus musculus with 9 samples.

Results

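The 10 genes described here are known from the oocyte, the early embryo and the germ line, and were listed for their expression in mouse embryonic stem (ES) cells: Dppa2, Dppa3, Dppa4, Dppa5a, Ooep, Tdh, Tcl1, Utf1, L1td1 and AU018091. They were chosen by their higher level on the ES arrays of this same data set, so their difference from the ES cells is described below without a test. Every probe set that named a listed gene alone was taken, which gave 12 probe sets for 9 of the 10 genes, out of 45101 probe sets and 18193 genes with a probe set of their own. Dppa2 had 2 probe sets, Utf1 had 3 and the other 7 genes had 1 each. Tdh, the threonine dehydrogenase of mouse ES cells, is not analysed here.

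RNA was measured on 9 Affymetrix mouse arrays, 3 for each of 3 groups. All groups came from 1 line, Ainv15, mouse ES cells that carry Cdx2 with a V5 tag under doxycycline control. The ES group was undifferentiated cells at day 0, cultured with LIF on fibroblasts that mitomycin C had stopped from dividing. The motor neuron cultures were embryoid bodies at day 5 that had received 1 µM retinoic acid and 0.5 µM of a hedgehog agonist from day 2, with no doxycycline. The Cdx2 and FGF cultures were embryoid bodies at day 5 with the same signals from day 2, and in addition basic FGF (100 ng/ml) and a pulse of doxycycline (2 µg/ml) that lasted 6 to 8 hours on day 3. Cdx2 is a homeodomain protein of caudal embryonic tissue. The growth protocol also gives retinoic acid and hedgehog agonist at 100 nM each in a later step, and does not say which of the day 5 cultures this covers. The effects of doxycycline, of Cdx2 and of FGF cannot be told apart in this group. Whether the 3 arrays of a group came from separate cultures is not stated, and p-values here describe the scatter among arrays, which may be technical. In cultures of mixed cells, fewer cells of a type and less RNA per cell cannot be told apart.

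The oocyte loads the egg with proteins and RNAs that carry the embryo until its own genome is switched on, and some of these genes are used again in the inner cell mass, in ES cells and in primordial germ cells. Dppa2 and Dppa4 are partner SAP-domain proteins that bind chromatin, keep CpG-rich promoters open and act upstream of the genes of zygotic genome activation. Dppa3 (Stella, PGC7) is a maternal protein that guards the maternal genome against loss of DNA methylation and binds the methylation factor UHRF1. Ooep is a subunit of the subcortical maternal complex of the oocyte, and Dppa5a (Esg1) is its relative, with a KH domain of the kind that binds RNA. Utf1 is a chromatin protein of pluripotent cells, Tcl1 is a co-activator of the AKT kinases, and L1td1 is an RNA-binding protein derived from the first open reading frame of a LINE-1 retrotransposon.

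The genes were chosen by their higher ES level, so being high and low together is no finding about their promoters. The start regions of 4 of them are shown as a description. They run from 250 bases before to 50 bases after the RefSeq start in GRCm38.p6, 5′ to 3′ on the strand of the gene, and promoters of 4 of the 10 listed genes were in the table used. They are L1td1 at chr4:98726504-98726803 on the plus strand, Utf1 at chr7:139943606-139943905 on the plus strand, Ooep at chr9:78378539-78378838 on the minus strand and Tcl1 at chr12:105222688-105222987 on the minus strand. Capitals mark the GC-box GGGGCGGGG on either strand, which reads CCCCGCCCC on the opposite one.
L1td1: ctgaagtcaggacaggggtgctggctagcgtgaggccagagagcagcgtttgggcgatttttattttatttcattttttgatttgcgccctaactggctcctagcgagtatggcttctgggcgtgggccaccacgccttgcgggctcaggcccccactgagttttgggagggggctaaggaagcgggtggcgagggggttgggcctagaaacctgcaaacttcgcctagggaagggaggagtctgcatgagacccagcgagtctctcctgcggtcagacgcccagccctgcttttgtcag
Utf1: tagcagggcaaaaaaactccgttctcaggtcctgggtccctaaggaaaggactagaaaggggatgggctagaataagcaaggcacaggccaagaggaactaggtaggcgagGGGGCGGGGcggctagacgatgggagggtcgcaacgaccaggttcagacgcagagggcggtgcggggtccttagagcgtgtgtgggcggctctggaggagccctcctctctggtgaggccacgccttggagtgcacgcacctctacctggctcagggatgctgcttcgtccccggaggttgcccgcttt
Ooep: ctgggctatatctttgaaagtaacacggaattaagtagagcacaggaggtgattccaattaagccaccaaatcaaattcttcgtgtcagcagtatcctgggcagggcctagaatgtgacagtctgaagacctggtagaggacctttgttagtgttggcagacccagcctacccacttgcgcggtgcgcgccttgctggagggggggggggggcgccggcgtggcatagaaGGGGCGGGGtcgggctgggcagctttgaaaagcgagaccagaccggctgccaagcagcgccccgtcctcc
Tcl1: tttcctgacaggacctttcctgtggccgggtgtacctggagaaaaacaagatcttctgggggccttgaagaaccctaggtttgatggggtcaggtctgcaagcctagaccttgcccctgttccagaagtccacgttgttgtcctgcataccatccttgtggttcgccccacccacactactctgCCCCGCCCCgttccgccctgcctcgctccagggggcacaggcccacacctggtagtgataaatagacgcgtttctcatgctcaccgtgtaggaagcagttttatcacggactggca
The GC-box was found in 3 of the 4 regions, and in 11.4% of the 32851 promoters of this length in the table. Its first base lay 139 bases before the start of Utf1, 20 bases before that of Ooep and 66 bases before that of Tcl1. All 4 regions held more CpG dinucleotides than the table's median of 7, but none was extreme. The share of promoters with lower CpG was 68.6% for Utf1, 65.4% for Ooep, 63.7% for L1td1 and 58.6% for Tcl1. The count was 17 for Utf1, 15 for Ooep, 14 for L1td1 and 11 for Tcl1, and the ratio of observed to expected CpG was 0.615, 0.602, 0.559 and 0.462 in that order, against a median of 0.384. The 5 other motifs, searched on both strands, had no match in the 4 regions. They were ATGCAAAT, found in 1.74% of the promoters, ACAATGG in 3.66%, TCAAGGTCA in 0.423%, CACGTG in 7.15% and TTCCCGCC in 2.19%. A match is a run of letters, and the absence of one says only that these letters are not in this window.

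The deposited values are log2 expression levels per probe set, with a floor of 2.17 that all 9 arrays share. A value under 4 was treated as too dim to measure. Of the 12 probe sets, 11 lay over 4 on all 3 ES arrays, and 8 of these 11 were at the floor on all 6 day 5 arrays. Folds against a group that lies under 4 are lower bounds, with values under 4 raised to 4. Each value is a level of 1 probe set, and levels of different genes are not compared.

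**Figure D1:**
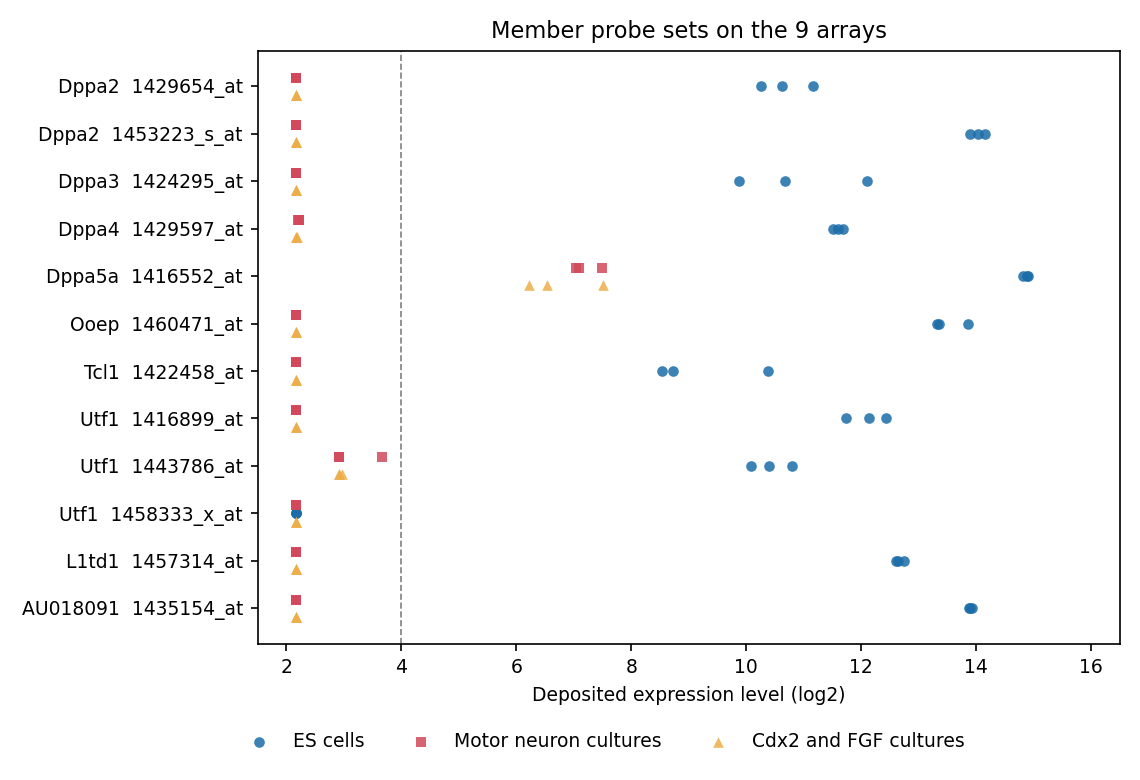
Deposited log2 expression level of the 12 probe sets of the listed genes on each of the 9 arrays. Each point is 1 array, coloured and shaped by group, and the dashed line is the level of 4 under which a value was treated as too dim. The ES points of 11 probe sets lie to the right of the line, and Dppa5a is the only gene with day 5 points to the right of it.

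Among the chromatin proteins, Dppa2 was read by 2 probe sets that gave the same pattern. The brighter one (1453223_s_at) stood at 14.03, 14.15 and 13.89 on ES replicates 1 to 3 and at the floor on every day 5 array. ES cells were thus at least 1041-fold over both kinds of day 5 culture. The other Dppa2 probe set (1429654_at) stood at 10.62, 10.26 and 11.16 in ES cells and at the floor on the 6 day 5 arrays, a difference of at least 103-fold. Its ES arrays spread over 0.90 on the log2 scale, and those of the first probe set over 0.26.

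Dppa4, the partner of Dppa2, was tightly grouped in each condition. Its level was 11.51, 11.61 and 11.69 in ES cells, 2.21, 2.20 and 2.21 in the motor neuron cultures and 2.17, 2.17 and 2.19 in the Cdx2 and FGF cultures. ES cells were at least 194-fold higher than either day 5 group. All 6 day 5 arrays were under 4, so the small gap between the day 5 groups has no measured order.

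Dppa3 was the most uneven of the genes within the ES group. It read 10.68 on ES replicate 1, 9.88 on replicate 2 and 12.11 on replicate 3, a 4.71-fold span, and was at the floor on all 6 day 5 arrays. The lowest ES array was still far above every day 5 array. ES cells were at least 118-fold higher, and this bound lay between 77.4-fold and 168-fold when 1 ES array was left out, with the lowest value without replicate 3.

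Utf1 gave different readings with its 3 probe sets. The one used in the fit (1443786_at) read 10.80, 10.09 and 10.40 in ES cells, 3.66, 2.91 and 2.91 in the motor neuron cultures and 2.97, 2.91 and 2.91 in the Cdx2 and FGF cultures, which put ES cells at least 86.0-fold higher. Another (1416899_at) read 12.13, 11.73 and 12.43 in ES cells and the floor on all day 5 arrays, at least 274-fold lower. The third (1458333_x_at, a type of probe set that can also bind other transcripts) was at the floor on all 9 arrays. Its reading goes against those of the other 2 probe sets of Utf1.

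The related genes Ooep and Dppa5a differed in what was left at day 5. Ooep read 13.85, 13.32 and 13.36 in ES cells and the floor on every day 5 array, with ES cells at least 730.4-fold higher. Dppa5a read 14.88, 14.82 and 14.90 in ES cells. It remained measurable in the motor neuron cultures, at 7.49, 7.05 and 7.09, and in the Cdx2 and FGF cultures, at 7.50, 6.54 and 6.23. The ES level of Dppa5a was 202-fold that of the motor neuron cultures and 276-fold that of the Cdx2 and FGF cultures. Dppa5a was thus the only gene of the 9 with a day 5 level over 4.

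Tcl1, the AKT co-activator, was the second gene with a wide ES group. It read 8.53 on ES replicate 1, 10.39 on replicate 2 and 8.73 on replicate 3, a 3.62-fold span, and the floor on the 6 day 5 arrays. Replicate 2 stood apart from the other two ES arrays. ES cells were at least 37.2-fold higher than the day 5 cultures, and at least 24.8-fold to 47.2-fold higher with 1 ES array left out, the lowest value being without replicate 2.

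L1td1 and AU018091 were among the evenest of the genes. L1td1 read 12.60, 12.75 and 12.64 in ES cells and the floor in every day 5 culture, at least 406-fold lower. AU018091 read 13.88, 13.90 and 13.94 in ES cells and the floor elsewhere, at least 959-fold lower. The ES and day 5 arrays did not overlap for either gene.

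With each gene represented by its brightest probe set over the 9 arrays, the median log2 difference of the 9 genes from ES cells was -9.39 in the motor neuron cultures, from -11.86 for Dppa2 to -7.05 for Tcl1. In the Cdx2 and FGF cultures it was -9.43. The median over all 10911 genes tested was -0.08 and -0.0038 in these comparisons, which share the ES arrays. With values under 4 raised to 4, the medians of the 9 genes were -7.66 and -8.11. A gene was called at an adjusted p under 0.05 and a log2 difference of at least 1, and 30.7% of the genes tested were called lower in the motor neuron cultures than in ES cells and 27.2% lower in the Cdx2 and FGF cultures. Nothing is read from this, since the genes were chosen by this difference. Of the 7008 genes over 8 on all 3 ES arrays, 181 (2.58%) were under 4 on all 6 day 5 arrays. The 9 listed genes were all over 8 on the ES arrays, with 8 of them under 4 at day 5. They were chosen for being higher in ES cells, so their share is no finding against the 2.58%.

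Measures of RNA and array quality moved with the ES group. The 18S ribosomal RNA control read 5.86 to 6.60 on the ES arrays and 15.32 to 15.51 on the day 5 arrays. The 3′ minus 5′ difference of Actb was 1.87 to 2.30 in ES cells and -0.10 to -0.01 at day 5, and that of Tfrc was 5.59 to 6.86 against -1.74 to -1.39. That of Gapdh was 0.63 to 1.05 in ES cells and 0.51 to 0.65 at day 5. The share of probe sets over 4 was 44.3% to 45.0% in ES cells and 43.5% to 43.9% at day 5. The part of these differences in the levels above was not tested. Checked against the labelled cell types, all 8 ES cell markers were over 4 on all ES arrays and under 4 on all day 5 arrays, and the mean level of 9 motor neuron markers was 4.05 to 4.24 in ES cells, 9.26 to 9.97 in the motor neuron cultures and 6.83 to 6.95 in the Cdx2 and FGF cultures.

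The difference between the 2 day 5 groups is not one the genes were chosen by, and it was tested for every gene, with the spread estimated over all 9 arrays. In the Cdx2 and FGF cultures against the motor neuron cultures, 0 of the 9 listed genes were called by limma with Benjamini-Hochberg adjustment, and 0 had an unadjusted p under 0.05. Of all genes tested, 11.2% were called higher and 8.61% lower in this contrast. For 8 of the 9 genes all 6 arrays lay under 4, so no difference could be measured there. The measurable member was Dppa5a. Its mean was 7.21 ± 0.25 (SD, n = 3) in the motor neuron cultures and 6.76 ± 0.66 (SD, n = 3) in the Cdx2 and FGF cultures, and the groups overlapped, because Cdx2 and FGF replicate 1 was the highest of the 6 arrays.

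The difference of Dppa5a was -0.45 on the log2 scale, with an SE of 0.30 and an adjusted p of 0.303 in the limma fit. A 95% interval from this SE and the 6 residual degrees of freedom ran from -1.19 to 0.28. The limma fit uses more degrees of freedom, so its own interval would be narrower. An exact two-sided permutation test over the 6 arrays gave p = 0.4, where 0.1 is the smallest value that 3 arrays against 3 can give. Without Cdx2 and FGF replicate 1 the difference was -0.82 and the adjusted p 0.0223, which is short of the log2 difference of 1 that a call needs. With the other settings tried the adjusted p lay between 0.175 and 0.731.

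The spread within the ES group divided the 9 genes. On the log2 scale the SD over the 3 ES arrays was 1.13 for Dppa3, 1.02 for Tcl1, 0.36 for Utf1, 0.30 for Ooep, 0.13 for Dppa2, 0.09 for Dppa4, 0.08 for L1td1, 0.04 for Dppa5a and 0.03 for AU018091. The median over the 7008 genes over 8 on all ES arrays was 0.312, and 3 of the 9 genes were above it by the probe sets used. The SD of Dppa3 exceeded that of 99.2% of those genes and the SD of Tcl1 that of 98.5%, while AU018091 exceeded 0.799% and Dppa5a 1.47%. The side of Dppa2 depends on the probe set: its other one (1429654_at) had an ES SD of 0.45, above the median of 0.312. The ES mean of that probe set was 10.68, against 14.02 for the one used. The 7008 genes were not matched to the 9 on level, and the part of level in these SDs was not tested. With 3 arrays an SD is a rough figure, and these are descriptions.

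**Figure D2:**
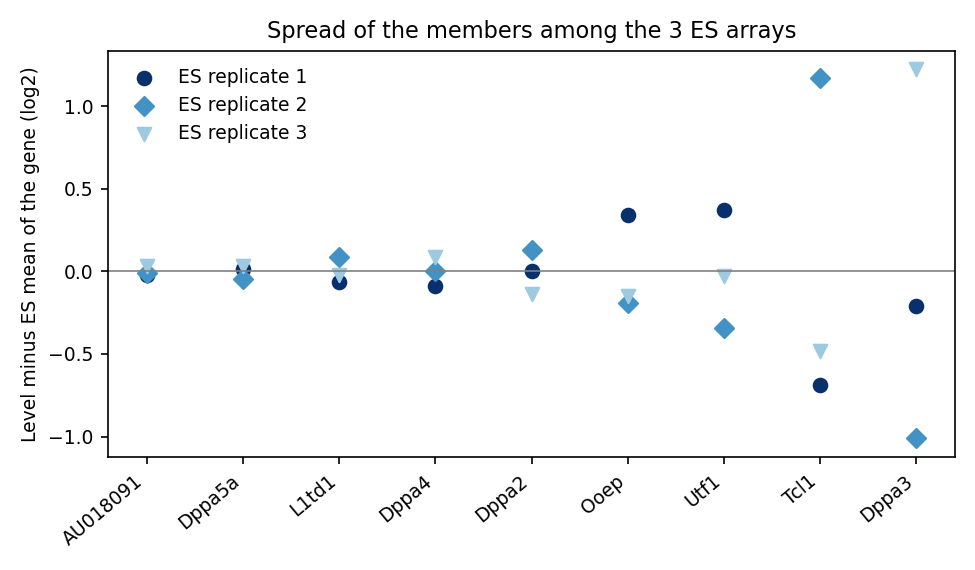
Level of each of the 9 genes on each ES array minus the gene's mean over the 3 ES arrays, on the log2 scale, with genes ordered by their SD. Points are arrays, shaped by replicate; Dppa3 is highest on replicate 3 and Tcl1 on replicate 2, while AU018091, Dppa5a, L1td1 and Dppa4 stay close to 0.

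The 2 uneven genes did not follow the same array. By the probe sets used, replicate 3 was the highest ES array for 4 of the 9 genes, replicate 2 for 3 and replicate 1 for 2. The other Dppa2 probe set (1429654_at) and the Utf1 probe set 1416899_at were highest on replicate 3, unlike those used. Among all genes tested, 4.13% were highest on ES replicate 3 by 1 or more on the log2 scale, as Dppa3 was, and 4.49% on ES replicate 2 by 1 or more, as Tcl1 was. The ES order of Dppa3, with replicate 3 highest and replicate 2 lowest, was shared by 19.0% of the genes tested. Examples chosen after their values were seen were Zp3, a glycoprotein of the egg coat, at 7.86, 5.57 and 9.13, Khdc3, a maternal complex subunit, at 5.33, 4.71 and 7.51, and the growth factor gene Gdf3, at 11.18, 11.05 and 11.90. Markers of the fibroblast layer also differed among the ES arrays: the mean level of 11 of them was 4.66 on replicate 1 and 7.19 and 7.13 on replicates 2 and 3. Their part in the spread of the 9 genes was not tested.

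By their profile over the 9 arrays, the genes most like the mean of the listed genes were Zfp42, Ptger4, Tdgf1, Ddx4, Fgf4, Cd3e, Esrp1, 1700097N02Rik, Glod5 and Zfp979, with Pearson's r from 0.99979 to 0.999898. Of the other genes tested, 392 of 10902 had an r over 0.99, and the value mostly reflects the split of ES from day 5 arrays, on which all genes were read, so no test is given. Zfp42 (Rex1) is a zinc finger protein used as a marker of naive pluripotency, and it was also the most like Dppa4 and AU018091. Esrp1, a splicing factor of epithelial cells, was the most like Dppa2, Tdgf1, a co-receptor of Nodal, the most like L1td1, and Dnmt3l, the germ-line cofactor of DNA methylation, the most like Ooep. Among the uneven genes, Fgf17 was the most like Dppa3 and Xist the most like Tcl1. For Dppa5a the most like gene was Suz12, a Polycomb subunit, at r = 0.998, and for Utf1 it was A930007A09Rik, also at r = 0.998.

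Several of the listed genes lie next to each other, and the genes around them were examined after their values had been seen. The 3 protein-coding genes on each side of each of the 9 genes, in the order of the GRCm38.p6 annotation, made 42 genes that were not on the list, of which 32 had a probe set and 18 were tested. Of these 18, 13 were lower in the motor neuron cultures than in ES cells, 3 were higher and 2 were not called, against 30.7% lower and 25.9% higher among all genes. Only 5 of the 13 were also over 4 on a day 5 array, and 8 of the 18 passed the filter only through the ES arrays and so had to differ. A further 10 neighbours were under 4 on all 9 arrays. The neighbours of the listed genes thus included genes that were dim on every array, genes that fell and genes that rose.

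Dppa3 lies between Gdf3 and Nanog, a homeodomain factor of pluripotency. Nanog read 13.09, 13.54 and 13.73 in ES cells and the floor at day 5, so ES cells were at least 700.4-fold over the motor neuron cultures. For Gdf3, also at the floor there, the bound was at least 166-fold, and beyond Gdf3 it was at least 14.7-fold for Apobec1, a cytidine deaminase. These genes, like Morc1, Ddx43 and Cgas below, passed the filter only through the ES arrays, so no p is given for them. On the other side of Nanog, the glucose transporter gene Slc2a3 stayed high, at 14.50, 14.74 and 14.70 in ES cells, 12.87, 12.85 and 12.70 in the motor neuron cultures and 14.59, 14.32 and 14.50 in the Cdx2 and FGF cultures. Slc2a3 was higher by 1.66 in the Cdx2 and FGF than in the motor neuron cultures (limma SE 0.10, adjusted p = 1.91e-06), a contrast in which Dppa3, Gdf3 and Nanog were all at the floor.

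Dppa2 and Dppa4 lie side by side, with Morc1 next to Dppa2 and Nectin3 beyond Dppa4. Morc1, a silencer of transposons in the male germ line, read 12.02, 11.21 and 11.69 in ES cells and the floor at day 5, at least 199.6-fold lower in the motor neuron cultures. Nectin3, a cell adhesion gene, went the other way: it rose from 8.73, 9.26 and 8.78 in ES cells to 12.44, 12.46 and 12.37 in the motor neuron cultures, by 3.50 on the log2 scale (limma SE 0.16, adjusted p = 5.34e-08).

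Ooep and Dppa5a are also side by side. Ddx43, the next gene and a helicase of the germ line, read 8.70, 7.87 and 7.81 in ES cells and the floor at day 5, with ES cells at least 17.5-fold higher. Cgas, the sensor of DNA in the cytosol, read 4.09, 6.65 and 6.66 in ES cells and the floor at day 5, with ES cells at least 3.48-fold higher. The oocyte genes Omt2a and Omt2b, beyond Gsta2 on the other side of Dppa5a, were at the floor on all 9 arrays.

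**Figure D3:**
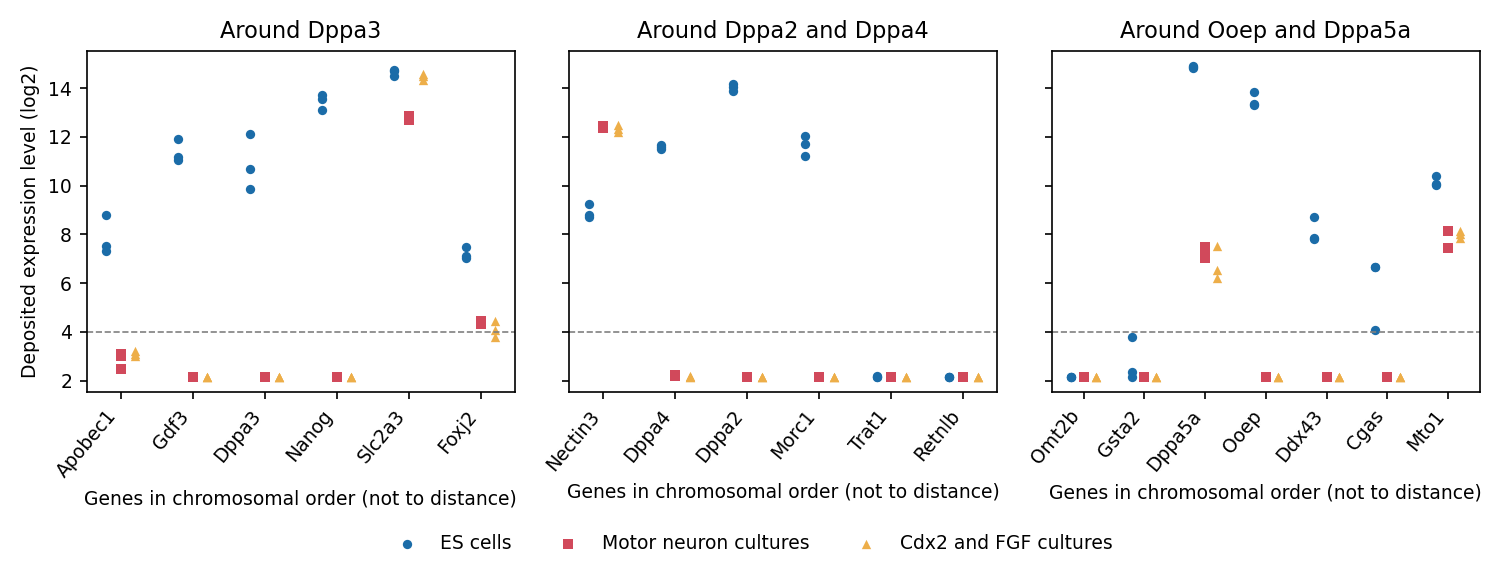
Deposited log2 level on each array of the genes around Dppa3, around Dppa2 and Dppa4, and around Ooep and Dppa5a, in chromosomal order and not to distance. Each point is 1 array and the dashed line is a level of 4; Nectin3 and Slc2a3 are high at day 5 beside listed genes that lie at the floor.

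The relatives and partners of the listed genes were taken from lists by role, and several of those called lower at day 5 were measurable only in ES cells. Genes that passed the filter only through the ES arrays had to be lower at day 5, so their counts are no finding, and their differences are given as lower bounds with no p. The counts that follow stand against 30.7% lower and 25.9% higher among all genes tested for the motor neuron cultures against ES cells, and against 11.2% higher and 8.61% lower for the Cdx2 and FGF against the motor neuron cultures. Each gene was read by its brightest probe set. Of the 96 genes tested in these lists, 44 had another tested probe set, and for 18 of the 44 another probe set was called differently between the motor neuron cultures and ES cells. Probe sets of Uhrf1, Pik3r1, Rictor and Tut4 were called in opposite directions there. In a list of genes of the maternal complex of Ooep and other maternal genes, 8 of 9 genes had a probe set and 5 were tested. Of these, 3 were lower in the motor neuron cultures than in ES cells, 1 was higher and 1 was not called, with a median of -2.79 (-1.48 with values under 4 raised), and 3 passed the filter only through the ES arrays. Testing only genes over 6 on at least 3 arrays left 3 genes, of which 1 was lower. Nlrp4f read 10.04, 9.51 and 9.93 in ES cells and the floor at day 5, so ES cells were at least 56.8-fold over the motor neuron cultures. By the probe set used, Zbed3 rose from 2.29, 6.14 and 3.11 to 10.58, 10.34 and 10.24. This was at least 51.0-fold with the 2 ES arrays under 4 raised (limma adjusted p = 4.66e-05). Another Zbed3 probe set rose less, from a mean of 6.32 to 8.02 (limma difference 1.69, adjusted p = 0.000137). Between the day 5 groups, Kdm1b, a histone demethylase of the oocyte, was lower in the Cdx2 and FGF cultures, with a limma difference of -1.10 (SE 0.23, adjusted p = 0.00618), and the other 4 were not called.

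The classical oocyte genes and the genes of the 2-cell embryo were mostly too dim to measure. Of 17 oocyte genes, 14 had a probe set and 1 was tested: Zp3, which was at the floor at day 5, with ES cells at least 11.5-fold over the motor neuron cultures. With only genes over 6 on at least 3 arrays tested, 0 of the oocyte genes were left. Of 19 genes of the 2-cell embryo, which include targets of the activation programme that Dppa2 and Dppa4 act upon, 10 had a probe set and 2 were tested. Usp17la read 11.45, 9.61 and 10.39 in ES cells and the floor at day 5, so ES cells were at least 89.4-fold higher. Arg2 read 7.15 and 6.34 on ES replicates 1 and 3, about 4 on ES replicate 2, and 5.13, 4.80 and 4.14 in the motor neuron cultures and was not called, but it was called without ES replicate 2, which made the lower count 2. By limma, 0 genes of either list were called between the day 5 groups, and 0 had an unadjusted p under 0.05.

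Among the Tcl1 family and the AKT pathway, 12 of 16 genes had a probe set, and Tcl1b1, Tcl1b3 and Tcl1b4 were under 4 on all 9 arrays. Of 9 tested genes, 2 were lower in the motor neuron cultures than in ES cells, 2 were higher and 5 were not called, with a median of -0.36. Eras, a Ras protein of ES cells, was the gene that followed Tcl1 to the floor, from 12.41, 11.74 and 11.96, with ES cells at least 262-fold higher. The kinase genes Akt2 and Akt1 rose. By the probe sets used, Akt2 rose at least 54.1-fold (limma adjusted p = 7e-07), with 1 ES array under 4. Akt1 rose by 1.51 on the log2 scale (SE 0.25, adjusted p = 0.000441). Other probe sets gave rises of other sizes. Another of Akt2 rose by 2.59 on the log2 scale (limma adjusted p = 0.000115). Another of Akt1 rose by 6.96 (limma adjusted p = 7.3e-07), from an ES mean of 3.73. Between the day 5 groups, the catalytic subunit gene Pik3ca was lower (limma difference -1.20, SE 0.19, adjusted p = 0.00107) and the regulatory subunit gene Pik3r1 higher (difference 1.59, SE 0.29, adjusted p = 0.00277) in the Cdx2 and FGF cultures. Other Pik3ca probe sets were called lower there, by -1.21 and -1.25. A further Pik3ca probe set was not called (limma difference -0.26, adjusted p = 0.468).

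Of 21 germ-line genes, 19 had a probe set and 13 were tested, 10 of which were measurable only through the ES arrays and so had to be lower at day 5. In all, 11 of the 13 were lower in the motor neuron cultures than in ES cells and 1 was higher, with a median of -6.42 (-4.59 with values under 4 raised). ES cells were at least 126-fold over the motor neuron cultures for Mael, of the piRNA pathway, at least 112-fold for Tdrd12 and at least 108-fold for the helicase gene Ddx4. Between the day 5 groups 0 of the 13 were called by limma and 0 had an unadjusted p under 0.05.

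Of 7 tested primordial germ cell genes, of 11 listed and 10 with a probe set, all 7 were lower in the motor neuron cultures than in ES cells, with a median of -5.81 (-5.27 with values under 4 raised) and 1 measurable only through the ES arrays, and 4 of the 7 were higher in the Cdx2 and FGF than in the motor neuron cultures, where 11.2% of all genes were. Ifitm1, an interferon-induced membrane protein gene, read 13.25, 12.46 and 14.10 in ES cells, 2.80, 2.84 and 2.43 in the motor neuron cultures and 12.47, 12.78 and 12.81 in the Cdx2 and FGF cultures. It was at least 412-fold higher in the latter than in the motor neuron cultures (limma log2 difference 9.99, SE 0.36, adjusted p = 1.15e-07). Prdm1 (Blimp1), a transcription factor of germ cell specification, was one of the 4, but 1 of its 3 Cdx2 and FGF arrays was over 4 and no motor neuron array was. With values under 4 raised its difference was 0.45 on the log2 scale, short of the 1 that a call needs. The listed gene Dppa3, a marker of the same cells, was at the floor on all 6 of these arrays. The mean level of the 11 fibroblast markers was 2.56 to 2.58 in the motor neuron cultures and 4.57 to 4.76 in the Cdx2 and FGF cultures, and its part in these differences was not tested.

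Of the threonine, glycine and folate genes, 16 of 20 had a probe set and 15 were tested: 5 were lower and 1 was higher in the motor neuron cultures than in ES cells, with a median of -0.32, and 2 were higher in the Cdx2 and FGF cultures than in the motor neuron cultures, against 11.2% of all genes. By the probe sets used, Mthfd1, of the folate cycle, differed most, from 14.07, 14.11 and 14.13 to 10.14, 10.84 and 10.80 (limma difference -3.51, SE 0.17, adjusted p = 9.78e-08). Another probe set of Shmt1, of the glycine and serine exchange, fell by 5.23 (limma adjusted p = 5.75e-08). Other Shmt1 probe sets differed less, by -2.79 and -1.89. A further Shmt1 probe set was not called (limma difference -0.32, adjusted p = 0.194), so its probe sets disagree on the call. Of the stem cell RNA-binding genes, 11 of 12 had a probe set and 10 were tested: 3 were lower and 3 higher in the motor neuron cultures than in ES cells, with a median of -0.45, while averaging each gene's probe sets gave 5 lower and 1 higher. Lin28a, the RNA-binding protein that L1td1 is known to associate with, read 12.26, 12.89 and 12.64 in ES cells and 12.07, 12.09 and 12.03 in the motor neuron cultures. Its difference of -0.54 (limma SE 0.14, adjusted p = 0.00685) was short of 1 and not called, while L1td1 itself lay at the floor there. Another probe set of Lin28a went from a mean of 13.13 in ES cells to 10.63 in the motor neuron cultures, was called lower (limma difference -2.51, adjusted p = 1.43e-06), and was higher in the Cdx2 and FGF than in the motor neuron cultures by 1.48 (adjusted p = 0.000274). The probe sets of Lin28a thus disagree on the call. Trim71, a ubiquitin ligase of the same pathway, was lower in the motor neuron cultures than in ES cells (limma difference -2.94, SE 0.29, adjusted p = 1.04e-05) and higher in the Cdx2 and FGF than in the motor neuron cultures by 1.99 (SE 0.29, adjusted p = 0.000683).

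Of 12 DNA methylation genes, all tested, 9 were lower and 1 was higher in the motor neuron cultures than in ES cells, with a median of -2.05. Uhrf1, the partner that Dppa3 binds, differed by -1.26 (limma SE 0.12, adjusted p = 8.63e-06) by the probe set used, to 12.58, 12.86 and 12.98 in the motor neuron cultures. Another probe set of Uhrf1 went from a mean of 9.20 to 10.27 and was called higher by 1.08 (limma adjusted p = 0.00492), so its direction is not settled. Dnmt3l lay at the floor at day 5, with ES cells at least 297-fold over the motor neuron cultures. Tet1 and Tet3, which oxidise methylcytosine, went opposite ways: Tet1 differed by -5.05 (limma SE 0.21, adjusted p = 3.39e-08), and Tet3 was at least 27.9-fold higher in the motor neuron cultures (adjusted p = 1.68e-07), with all 3 ES arrays under 4. Between the day 5 groups 0 of the 12 were called by limma. An unadjusted p under 0.05 was found for 8, 7 of them higher in the Cdx2 and FGF cultures. The limma adjusted p was under 0.05 for 4, all higher there. None of these genes differed by as much as 1 on the log2 scale by the probe sets used. Some other probe sets were called higher there by limma. Among them were probe sets of Tet1, by 3.08 (adjusted p = 0.00404) and 1.25 (adjusted p = 0.0195). Another was of Hells, a chromatin remodeller, by 1.51 (adjusted p = 0.0304). A further Tet1 probe set was not called (limma difference 0.16, adjusted p = 0.838), so the probe sets of Tet1 disagree on the call.

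Of 23 pluripotency genes, 22 had a probe set and all 22 were lower in the motor neuron cultures than in ES cells, 16 of them measurable only through the ES arrays, with a median of -8.32 (-7.01 with values under 4 raised). ES cells were at least 1029-fold over the motor neuron cultures for Fgf4 and at least 828-fold for Tdgf1, and the bound for Nanog is given above. Between the day 5 groups 3 were higher and 1 was lower in the Cdx2 and FGF cultures. Sall4 had a mean of 10.29 in the motor neuron cultures and 12.65 in the Cdx2 and FGF cultures. Fitted by probe set, this difference was 2.37 (limma adjusted p = 3.69e-05), and that of another Sall4 probe set was 3.41 (adjusted p = 0.00305). Klf5 was at least 4.44-fold higher in the Cdx2 and FGF cultures (limma adjusted p = 0.000208), with all motor neuron arrays under 4. Nr0b1 was at least 3.52-fold lower there (limma adjusted p = 5.33e-05), with all Cdx2 and FGF arrays under 4. Of the listed genes, the 8 other than Dppa5a were under 4 in both day 5 groups.

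**Figure D4:**
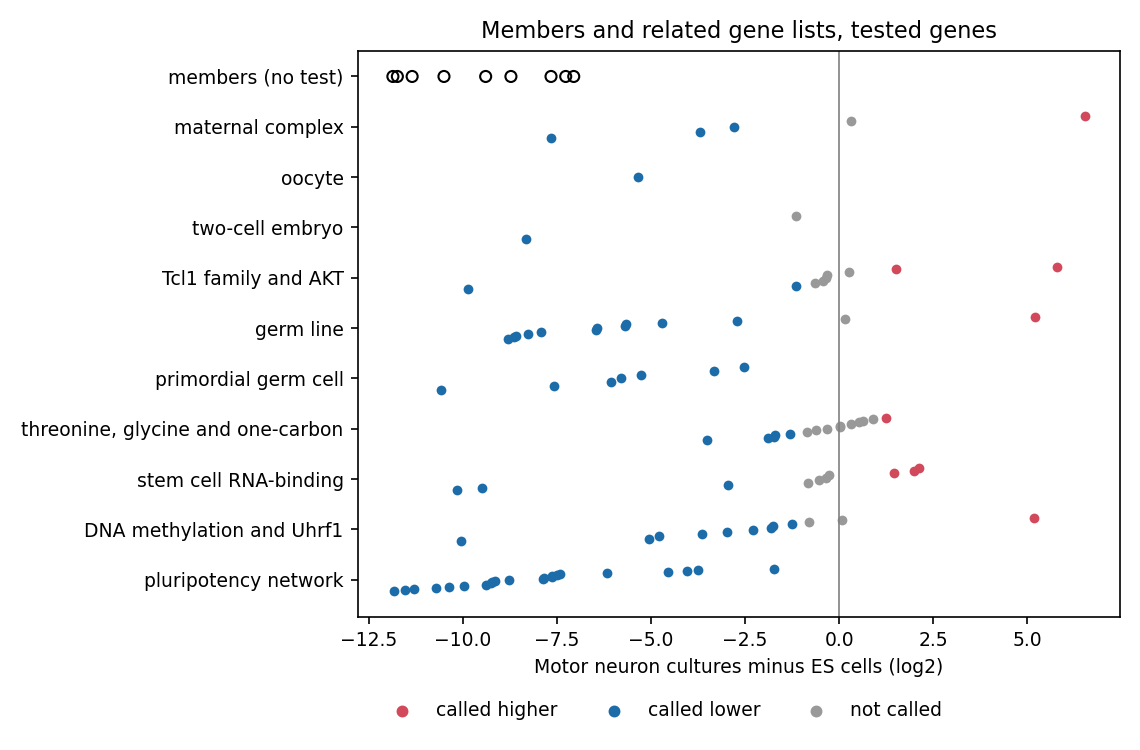
Log2 difference between motor neuron cultures and ES cells for the 9 listed genes (open circles, chosen by this difference and not tested) and for the tested genes of 10 lists by role. Each point is 1 gene, coloured by its limma call. The listed genes lie between -11.86 and -7.05. Points lie on both sides of 0 in the maternal complex, AKT, germ-line, folate, RNA-binding and DNA methylation lists.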

How the data were processed

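Labelled target for the 9 arrays was made with NuGEN's Ovation amplification, per the labels' protocols. The submitters' processing notes name GCRMA, a background correction and normalization method for Affymetrix arrays, and limma, with no versions. The authors deposited log2 expression levels per probe set, from a floor of 2.17 to 16.1; that this scale is log2 was inferred from their range, and no further normalization was applied. Of 45101 probe sets, 34958 named 1 gene symbol, 932 several and 9211 none here. A gene was represented by its probe set with the highest mean, and genes over 4 on at least 3 arrays were tested (10911). In R 4.3.3, limma 3.58.1 (lmFit, eBayes with trend) estimated the 3 group means from all 9 arrays, with 6 residual degrees of freedom, and p-values were adjusted by Benjamini-Hochberg. The fit was tested on simulated data. The number of arrays limits the precision.

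The listed genes and the gene lists were chosen with earlier results of these data known, so counts over them are descriptions. Named genes are every listed gene, up to 3 called genes per list with the largest difference between motor neuron cultures and ES cells, up to 2 called between the day 5 groups, the 10 genes most like the mean profile, and the most like gene of each listed gene; others were singled out after their values were seen. Alternatives changed the scaling, filter, floor, variance prior, array weights, arrays fitted, probe set choice, replicate block and the replicates kept. Protein sequences are not used here.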

Additional observations from a re-analysis of the deposited data

Results flagged for a closer look

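The genes here changed differently from ES cells in the 2 day 5 groups, by the limma test of the difference between those groups (Cdx2 and FGF cultures minus motor neuron cultures, log2 scale, adjusted p); none is one of the listed genes. Ifitm1 differed by 9.99 (adjusted p = 1.15e-07): it was -10.58 from ES cells in the motor neuron cultures and -0.59 in the Cdx2 and FGF cultures. Its motor neuron arrays were all under 4, so it is given in the report as at least 412-fold. Ifitm3 differed by 1.76 (adjusted p = 8.44e-05), from -2.53 to -0.77. Mthfd1l, of mitochondrial folate metabolism, differed by 1.45 (adjusted p = 0.000137), from -1.74 to -0.29. Trim71 differed by 1.99 (adjusted p = 0.000683), from -2.94 to -0.95. Slc2a3, near Dppa3, differed by 1.66 (adjusted p = 1.91e-06), from -1.84 to -0.18. Pik3r1 differed by 1.59 (adjusted p = 0.00277), from -0.36 to 1.23; its probe sets disagree on the first of these. Pik3ca differed by -1.20 (adjusted p = 0.00107), from -0.43 to -1.63, and its probe sets disagree on the call between the day 5 groups. Nfia, near L1td1, differed by -2.62 (adjusted p = 0.0213), from -1.10 to -3.72. Of its Cdx2 and FGF arrays, 2 were under 4.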

How the results depend on the processing

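No listed gene was called between the day 5 groups under any alternative, and 8 of the 9 lay under 4 on all 6 day 5 arrays in each; the difference of Dppa5a ran from -0.82 to -0.19 with 1 array left out. Of 396 recomputed differences of the listed genes from ES cells, 30 moved by more than the spread between arrays and 0 reversed; 16 of the 30 came from raising values under 4 to 4. Counts over all genes moved by over 1.5 times where each probe set was tested by itself (21523): Cdx2 and FGF against motor neuron cultures 2343 higher and 1845 lower (1220 and 939 by gene), motor neuron cultures against ES cells 6873 and 6015 (2826 and 3346), and Cdx2 and FGF cultures against ES cells 6758 and 5312 (2774 and 2971). In this setting 18 of 44 listed-by-role genes with another probe set had one called differently between motor neuron cultures and ES cells, and 11 of 44 between the day 5 groups. With 1 array left out the counts by gene were 991 to 1288 and 806 to 994, 2701 to 2860 and 3192 to 3365, and 2629 to 2806 and 2850 to 3011. Median centring moved the median of all genes from -0.08 to -0.19 in the motor neuron cultures and from -0.0038 to -0.22 in the Cdx2 and FGF cultures against ES cells. Same-numbered arrays shared little of their deviation from the group means, with correlations of -0.0257 to 0.0769. Differently numbered arrays were not compared, so this does not settle whether the samples were paired. With the replicate block, 1206 genes were higher and 931 lower between the day 5 groups, and the adjusted p of Dppa5a was 0.238. Levels at the floor carry no order, and 3 arrays a group limit what can be seen.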
